A study of Mus musculus with 2 samples.

Results

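Myosin II and the proteins that switch it on, hold it off and place it on actin were described here through 10 genes, measured in the mouse mesoangioblast clones D16 and D351. The genes were Myh9, Myh10, Myh11, Myl6, Mylk, Ppp1r12a, Ppp1r14a, Cald1, Tpm1 and Myocd. A probe set was taken for a gene when the platform annotation gave it exactly 1 symbol and that symbol was in this list. All 10 genes were found, with 23 of the 12411 probe sets that are not controls, out of 7542 genes named on the array.

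Mesoangioblasts are vessel-associated mesodermal progenitors, and the keywords given with the samples include smooth muscle differentiation and stem cells. Both clones derive from the dorsal aorta of C57BL6 embryos of day 9.5, cultured for 5 days as an explant and then cloned at limiting dilution over mitomycin-treated embryonic fibroblasts in medium with 20% fetal calf serum. They were expanded on gelatin after cloning. The labels name no genetic change or treatment that separates the groups: each is 1 clone, measured on 1 U74B array, and the state of the cultures when RNA was taken was not given in the sources used here. With no replicate there is no spread between cultures, so no value below has a test, and every difference is one between 2 RNA samples. Fewer cells of a kind and less RNA per cell cannot be told apart in such samples.

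Myosin II is a motor of paired heavy chains, each carrying an essential and a regulatory light chain, that pulls on actin filaments. In smooth muscle and in non-muscle cells it is switched on when myosin light chain kinase, activated by calcium and calmodulin, phosphorylates the regulatory light chain, and off when myosin phosphatase removes that phosphate. Smooth muscle cells add their own heavy chain, Myh11, and the phosphatase inhibitor CPI-17 (Ppp1r14a), and many of their contractile genes are driven by serum response factor (SRF) with its coactivator myocardin through a DNA element called the CArG box.

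Mylk, Myh10 and Ppp1r12a had higher signals in D351, by 7.04-fold, 3.12-fold and 2.17-fold on their brightest probe sets. Cald1 and Myl6 gave strong signals in both clones and were 1.55-fold and 1.48-fold higher in D351. Of the parts typical of smooth muscle, Myh11 read 36.8 in D16 and 35.6 in D351. Ppp1r14a and Myocd stayed in both clones under 16.8, the median signal of the arrays, which served as a floor for ratios.

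Promoter sequences of genes with higher signals in D351 are printed because the CArG box is the element that SRF and myocardin act through. The RefSeq promoter entries used here, on build GRCm38.p6, matched 8 of the 10 genes with 10 entries in all; those of Myh11 and Myocd were not analysed here. Each line gives the 250 bases before the annotated start, 5′ to 3′ on the gene's strand. Capitals mark the CArG box (with up to 1 mismatch) and the MCAT element, CATTCC on either strand, which TEAD factors bind. The first 3 are genes at least 2-fold higher in D351 with no measured probe set in the other direction, Tpm1 is the gene whose probe sets disagree, and Myl6 is the entry with a complete CArG box.
Mylk, chr16:34784700-34784949, plus strand: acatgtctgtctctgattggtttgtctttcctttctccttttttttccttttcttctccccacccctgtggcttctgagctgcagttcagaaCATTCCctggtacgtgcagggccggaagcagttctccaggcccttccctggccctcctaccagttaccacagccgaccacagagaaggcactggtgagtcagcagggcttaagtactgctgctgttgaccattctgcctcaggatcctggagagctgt
Myh10, chr11:68691665-68691914, plus strand: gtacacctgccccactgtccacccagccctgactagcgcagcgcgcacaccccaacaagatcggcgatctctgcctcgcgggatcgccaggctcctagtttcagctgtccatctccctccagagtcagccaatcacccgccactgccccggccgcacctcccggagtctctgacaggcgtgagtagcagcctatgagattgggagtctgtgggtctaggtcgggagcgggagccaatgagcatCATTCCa
Ppp1r12a, chr10:108161848-108162097, plus strand: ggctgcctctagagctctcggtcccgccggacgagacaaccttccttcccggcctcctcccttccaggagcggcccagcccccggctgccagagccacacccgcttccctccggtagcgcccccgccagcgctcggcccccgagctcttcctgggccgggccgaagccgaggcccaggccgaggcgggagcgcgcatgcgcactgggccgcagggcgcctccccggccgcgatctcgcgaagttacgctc
Tpm1, chr9:67049214-67049463, minus strand: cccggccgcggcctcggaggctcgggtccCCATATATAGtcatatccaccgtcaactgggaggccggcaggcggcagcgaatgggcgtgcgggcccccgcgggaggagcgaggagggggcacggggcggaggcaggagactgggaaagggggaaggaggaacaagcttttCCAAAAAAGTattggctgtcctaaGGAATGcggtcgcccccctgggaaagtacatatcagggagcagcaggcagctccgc
Myl6, chr10:128493010-128493259, minus strand: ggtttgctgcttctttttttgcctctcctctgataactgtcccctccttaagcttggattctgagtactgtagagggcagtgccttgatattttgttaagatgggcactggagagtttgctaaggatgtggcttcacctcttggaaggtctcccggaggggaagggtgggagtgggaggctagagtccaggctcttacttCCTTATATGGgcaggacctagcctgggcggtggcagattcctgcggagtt

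The start that follows the Mylk sequence lies 39751 bases inside the annotated gene, so the window is not that of the most upstream start. Likewise the starts shown for Tpm1 and Myl6 lie 459 and 877 bases inside their genes, whereas that of Myh10 is the outer end of the gene. A complete CArG box was found in 1 of the 10 entries, against 1.47% of the 32851 mouse entries. This was the inner Myl6 entry (CCTTATATGG, beginning 50 bases before the start), and the entry at the outer end of Myl6 held none. With up to 1 mismatch 3 entries held one (the same Myl6 entry, the outer Cald1 entry and that of Tpm1, the last with 2 matches), against 18.6% of all entries. The MCAT element stood in 4 entries, those of Myh10, Mylk, Tpm1 and the outer entry of Cald1, against 12.6% of all entries. The windows of Mylk, Myh10 and Ppp1r12a held no CArG box within 1 mismatch. The GC box GGGCGG stood in 4 entries (32.7% of all) and TATAAA in 2 (12.4% of all), each searched on both strands and not capitalised. A match describes letters in this window and is no evidence that a factor binds.

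Deposited signals are on a linear scale, and 2% trimmed means were 40.0 on both arrays. Signals under 16.8, the median of both arrays together, were raised to that floor before the log2 ratio of D351 over D16 was taken. Where 1 clone lay below the floor the ratio is a bound, and where both did no ratio was given. Of the 23 probe sets of the 10 genes, 14 reached the floor on at least 1 array, 12 on both and 9 on neither. By gene, 8 of 10 reached it in D16 and 7 of 10 in D351, beside 59.5% and 59.8% of all genes on the array. The floor is a signal level and not a presence call. For the size of a probe set's own error, the ratios of the 2 brightest measured probe sets of a gene were compared over 1113 genes. The SD of their difference was 0.71 on the log2 scale, or 0.50 per probe set; it covers probe design and not cultures.

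**Figure D1:**
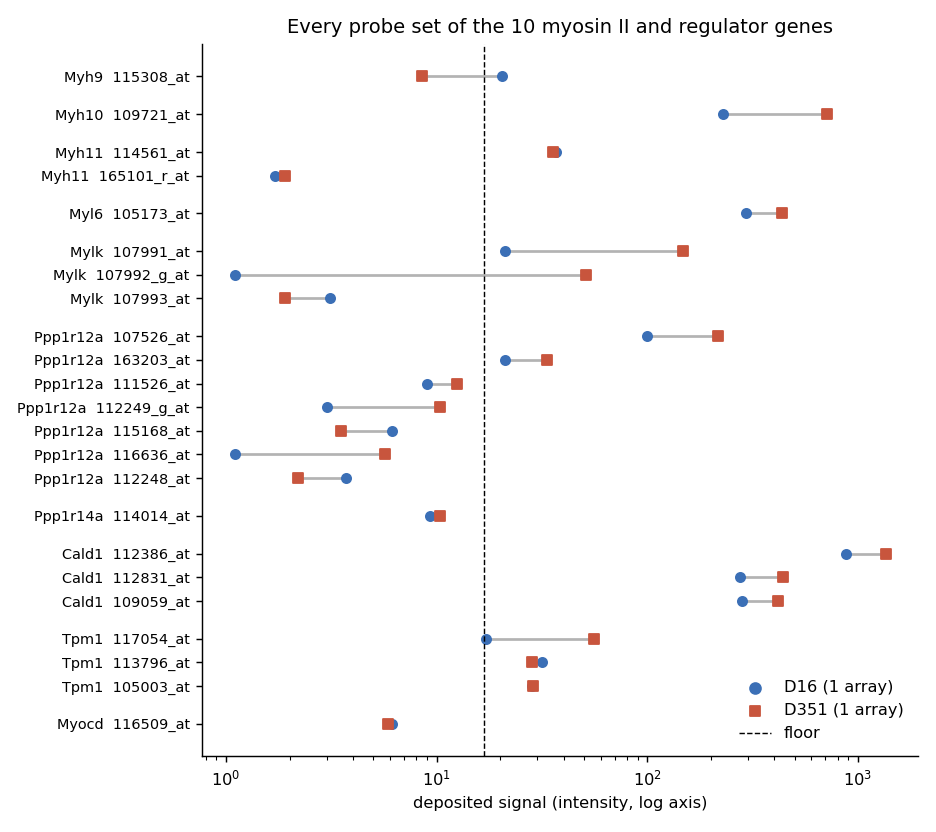
Signal of every probe set of the 10 genes (x axis, deposited intensity, log axis) in D16 (circles) and D351 (squares), 1 array each; the dashed line is the floor of 16.8. The probe sets of Cald1 lie far right of the floor in both clones, Mylk and Myh10 have wide gaps towards D351, and Ppp1r14a and Myocd lie left of the floor.

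Among the heavy chains, Myh10, which encodes the non-muscle chain IIB, was the one with a large difference. Its probe set read 229.2 in D16 and 714.8 in D351, a log2 ratio of 1.64. Both signals lay well above the floor, so the ratio does not rest on a dim array. Myh9, the non-muscle chain IIA, went the other way on its only probe set, with 20.4 in D16 and 8.5 in D351. Since the D351 signal was under the floor, this is a difference of at least 1.21-fold (log2 of at most -0.28), close to the floor on both sides. Signals this dim do not settle a direction for Myh9, so the non-muscle chains cannot be said to differ in direction.

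Myh11, the heavy chain of differentiated smooth muscle, had a log2 ratio of -0.05 on its measured probe set. Its other probe set, of the _r kind that was designed under relaxed rules, read 1.7 and 1.9. So 1 of the 2 Myh11 probe sets gave a signal above the floor, at a nearly equal level in both clones, and the other stayed under it in both. Of the 4 probe sets for the smooth muscle parts (Myh11, Ppp1r14a and Myocd), that 1 reached the floor in each clone.

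Myl6 encodes the essential light chain that smooth and non-muscle myosin II share. It read 294.3 in D16 and 435.9 in D351, a log2 ratio of 0.57. The difference is about as large as the SD of 0.50 per probe set, and Myl6 has no other probe set to set beside it. Regulatory light chains of smooth and non-muscle myosin (Myl9, Myl12a and Myl12b) were not analysed here.

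Mylk, the kinase that phosphorylates the regulatory light chain, had the largest ratio among the 8 members with one. On the brightest of its 3 probe sets it read 21.1 in D16 and 148.5 in D351, a log2 ratio of 2.82. On a _g probe set, a design shared by a group of related transcripts, it read 1.1 and 50.9, at least 3.03-fold higher in D351. The remaining probe set read 3.1 and 1.9 and was under the floor in both. Both measured probe sets therefore had higher signals in D351, and the D16 signal was close to the floor on one and below it on the other. With the floor at the 75th percentile (53.5) the ratio of the brightest probe set became a bound, log2 at least 1.47, so its size depends on where dim signals are set. Which Mylk transcripts each probe set reads was not tested.

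Myosin phosphatase is held on myosin by its targeting subunit MYPT1, the product of Ppp1r12a. This gene had 7 probe sets, more than any of the other 9 genes, and 2 of them reached the floor. The brightest read 100 in D16 and 217.0 in D351 (log2 1.12), and the next read 21.0 and 33.5 (log2 0.67). The other 5 read from 1.1 to 9.0 in D16 and from 2.2 to 12.5 in D351, all under the floor. Both measured probe sets were higher in D351, but 1 of them passed 2-fold, and their median of 0.90 did not. Taking off the median ratio of chromosome 10 left 0.77 for the brightest.

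Ppp1r14a encodes CPI-17, which when phosphorylated blocks myosin phosphatase and is abundant in smooth muscle. Its probe set read 9.3 in D16 and 10.4 in D351. Neither signal reached the floor, so nothing can be said about a difference at this sensitivity. In both clones, then, a targeting subunit of the phosphatase reached the floor and this inhibitor did not.

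Caldesmon, the product of Cald1, binds actin, tropomyosin and myosin and restrains the motor; smooth muscle and other cells make different forms of it. Its 3 probe sets read 874.9, 276.4 and 282.6 in D16, and 1357.6, 440.5 and 417.7 in D351. Their log2 ratios were 0.63, 0.67 and 0.56. The range of 0.11 is much smaller than the SD of 0.71 for the difference between 2 probe sets of a gene. All 3 were higher in D351 and none passed 2-fold. The probe sets do not show which form of caldesmon was measured.

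Tropomyosin 1 (Tpm1), which lies along the actin filament and is made in muscle and non-muscle forms by alternative splicing, gave no single answer. One probe set read 17.1 in D16 and 55.9 in D351, a log2 ratio of 1.71. Of the other two, one read 31.5 and 28.3 (log2 -0.15) and the last 28.3 and 28.6 (log2 0.02). The probe set with the difference had the highest mean of the 3 and therefore stands for the gene, though its D16 signal was just above the floor. With the median over the 3 the ratio was 0.02, and the 2-fold difference was gone. Which transcripts each probe set reads was not tested.

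Myocd encodes myocardin, the smooth and cardiac muscle coactivator of SRF. It read 6.1 in D16 and 5.9 in D351, under the floor in both.

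Of the 10 genes, 8 had a ratio. By the brightest probe set, 4 of these 8 (Mylk, Tpm1, Myh10 and Ppp1r12a) had D351 signals at least 2-fold higher, and 0 had D16 signals at least 2-fold higher. Of all 4922 genes measured, 9.49% passed 2-fold towards D351 and 8.57% towards D16. Among the 2962 genes whose brighter signal was at or above the 75th percentile (53.5), as it was for these 4, the shares were 12.1% and 11.5%. The members were proposed with results of these arrays known, so the count is a description of these genes. In the ordered ratios of all measured genes, Mylk stood at percentile 99.5, Tpm1 at 97.2, Myh10 at 96.7 and Ppp1r12a at 92.2. Cald1 was at percentile 82.3 and Myl6 at 80.1, inside the range of common ratios, while Myh11 was at 47.9 and Myh9, at its bound, at 34.0. Counted by the median over probe sets, Mylk (log2 2.21) and Myh10 alone kept a 2-fold difference, 2 of 8, beside 8.61% of all measured genes towards D351. Towards D16 the values were 0 of 8 and 7.88%.

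**Figure D2:**
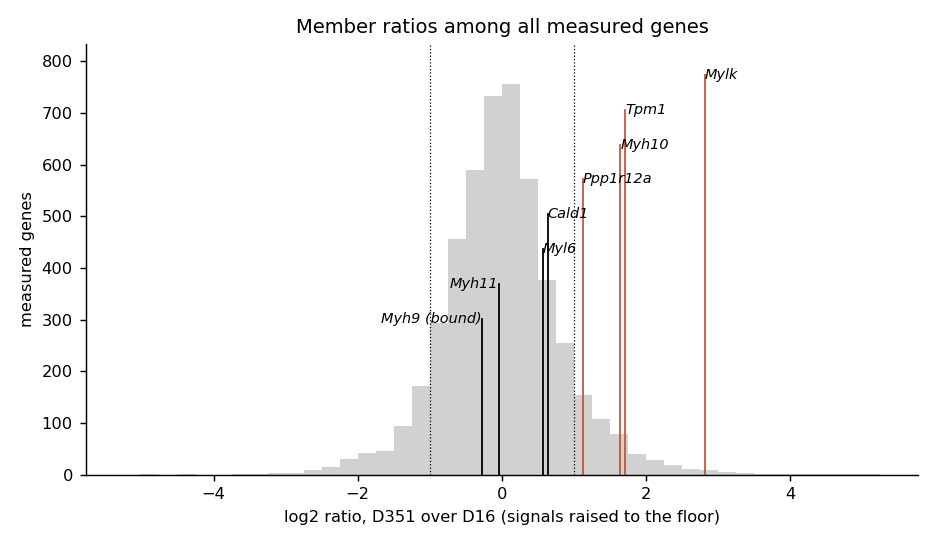
Log2 ratios of D351 over D16 for all 4922 measured genes (grey bars, number of genes per bin) with the 8 measured members as lines; red lines are at least 2-fold higher in D351 and dotted lines mark 2-fold. Mylk lies in the far right tail at 2.82, and Myh11 and Myh9 lie near the middle.

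Median ratios differed between the chromosomes that hold the members, from -0.22 on chromosome 7 to 0.35 on chromosome 10, so each member was set beside its neighbours. Mylk had a log2 ratio of 2.82, and the 20 nearest measured genes on chromosome 16 (10 on each side) had a median of 0.09, and 2 of these 20 passed 2-fold towards D351. Myh10, with 1.64, stood among 20 genes of chromosome 11 with a median of -0.04. Relative to their neighbours the ratios of Mylk and Myh10 were 2.73 and 1.68, about as large as on their own. Tpm1 on chromosome 9 had neighbours with a median of 0.57, of which 17 of 20 were above 0. Ppp1r12a and Myl6 both lie on chromosome 10, where the median of the other 249 measured genes was 0.35. Relative to that median their ratios were 0.77 and 0.22, and relative to their nearest genes they were 0.94 and 0.38. The ratio of Ppp1r12a was thus under 2-fold against both. Cald1 had 0.46 relative to chromosome 6 and 0.69 relative to its nearest genes. The part of the chromosome in these ratios was not tested.

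**Figure D3:**
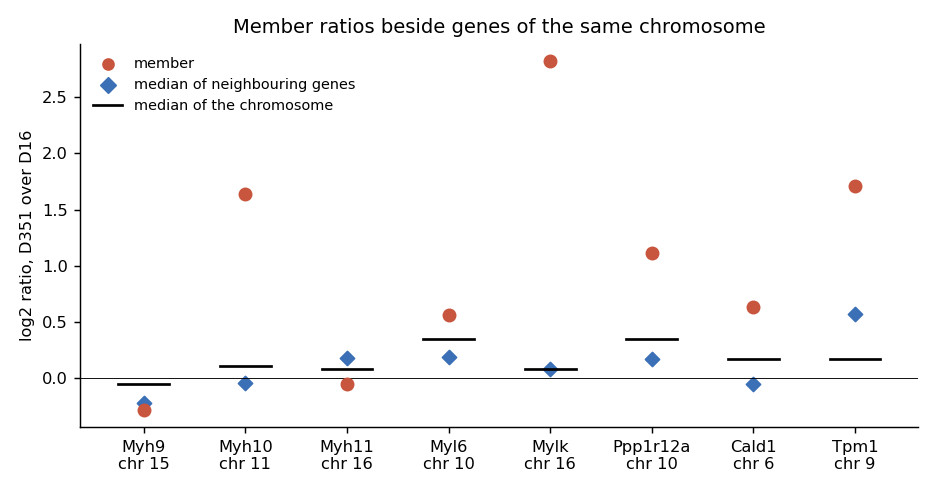
Log2 ratio of D351 over D16 (y axis) for the 8 measured members (red circles), the median of up to 20 neighbouring measured genes (blue diamonds) and the median of the other genes of the chromosome (black bars). Mylk and Myh10 stand far above both medians, and Myl6, at 0.57, stands above the chromosome 10 median of 0.35.

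The other genes of the pathway were taken from 10 lists with 148 genes, the members included, of which 59 were on the array and 42 reached the floor. Of these 42, 12 passed 2-fold towards D351, 1 passed it towards D16 and 29 did neither, where the shares over all measured genes were 9.49% and 8.57%. The median log2 ratio was 0.40, beside -0.01 for all measured genes. Without the 10 members, 8 of 34 measured genes passed 2-fold towards D351 and 1 towards D16, with a median of 0.28. The lists include 7 measured unconventional myosins, which do not form contractile filaments, and 17 genes under the floor in both clones had no ratio.

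Kinases acting on myosin light chains and kinases related to them (7 measured) went both ways. Dapk1, a death-associated kinase able to phosphorylate light chains, read 14.6 in D16 and 121.7 in D351, at least 7.24-fold higher, and at least 2.10-fold on its other probe set. Cit, the citron kinase of the cleavage furrow, was the 1 gene past 2-fold towards D16, with 152.6 and 62.8 (2.43-fold). Cdc42bpa and Cdc42bpb, kinases downstream of Cdc42, had log2 ratios of 0.78 and -0.21 on their brightest probe sets. A _g probe set of Cdc42bpb went the other way, with 14.9 and 39.5 (log2 of at least 1.23). Pak2 was close to equal, at 72.9 and 78.3.

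Within the phosphatase group (6 measured of 9 on the array), 3 were higher in D351 by 2-fold or more and 0 in D16, beside 9.49% and 8.57% of all measured genes. Besides Ppp1r12a these were Ppp1r12b, another targeting subunit, found in muscle, with 15.9 and 43.2 (at least 2.57-fold), and Phactr1, a phosphatase and actin regulator, with 19.3 and 58.7 (3.04-fold). A further targeting subunit, Ppp1r12c, went the other way without passing 2-fold, at 77.4 and 55.8. Its log2 ratio of -0.47 is within the SD of 0.50 per probe set. The 3 targeting subunits thus cannot be said to differ in direction. Phactr4, of the same list, was also lower in D351 without passing 2-fold, at 103.0 and 65.3 (log2 -0.66). Of the 6 measured genes, 3 had a log2 ratio above 0. Ppp1r14c, an inhibitor related to CPI-17, was under the floor on both of its probe sets.

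Of 7 thin filament genes on the array, 4 were measured. Tpm1 alone passed 2-fold, towards D351, beside 9.49% of all measured genes. Tmod3, which caps the slow-growing filament end, had log2 0.82 on its brightest probe set (34.3 and 60.7) and at most -0.03 on another. Actg2, the smooth muscle gamma actin, read 4.3 and 1.4 on an _i probe set, and Smtnl2 read 7.8 and 14.5. Neither reached the floor. Acta2, Tagln and Cnn1 were looked up, but no probe set of this array carried exactly 1 symbol for them.

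Of 4 measured calcium genes Camk2g, a calcium and calmodulin-dependent kinase, was 2.20-fold higher in D351 on its brightest probe set (116.7 and 256.2), with log2 ratios of 0.64 and 0.33 on the others. The calcium release channel genes went towards D16 without passing 2-fold: Itpr3 read 330.5 and 182.3 (log2 -0.86), and Itpr2 had log2 -0.27. The list median was 0.06, with 2 of 4 above 0. Camk2g was the 1 gene of the 4 past 2-fold towards D351, beside 9.49% of all measured genes.

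Transcription factors acting with myocardin or SRF had a mixed record. Srf itself read 102.7 in D16 and 79.4 in D351 on its brightest probe set (log2 -0.37) and 67.6 and 72.9 on another (0.11). Mrtfb, a coactivator of SRF related to myocardin, was 2.84-fold higher in D351 (19.2 and 54.6). Hand2, a regulator of limb and heart development, read 18.0 and 128.2 (7.12-fold). The D16 signals of Mrtfb and Hand2 were just above the floor of 16.8, so the size of both ratios depends on where dim signals are set. Tead1, a factor that binds MCAT elements, had log2 -0.09 on its brightest probe set, 0.53 on another and at least 1.61 on the remaining one. Of the 10 measured genes in this list, 2 were past 2-fold towards D351, Mrtfb and Hand2, and 0 towards D16. The shares over all measured genes were 9.49% and 8.57%.

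**Figure D4:**
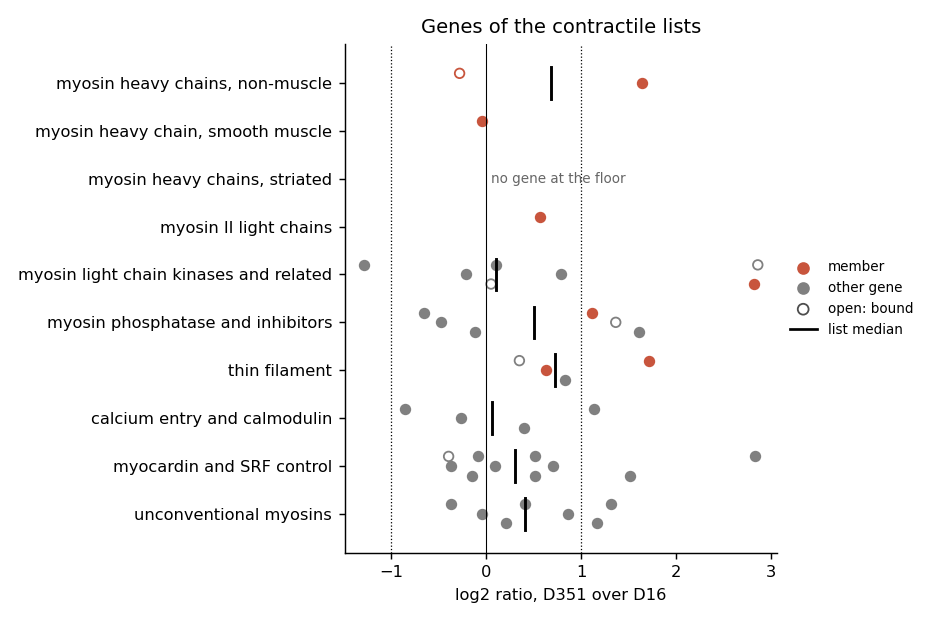
Log2 ratio of D351 over D16 (x axis) for each measured gene of the 10 lists, by its brightest probe set; red points are members, open points are bounds, black bars are list medians and dotted lines mark 2-fold. Points past 2-fold lie mostly on the right, and Cit is the 1 gene left of the 2-fold line.

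Smooth muscle identity was read from 17 markers, of which 10 were on the array. In both clones 3 of these 10 reached the floor: Cald1, Myh11 and Hspb6, a small heat shock protein of muscle (137.4 and 132.1). Cald1 is made outside smooth muscle too, and its probe sets do not show which form was measured. Myh11 reached the floor on 1 of its 2 probe sets. The other 7 (Actg2, Kcnmb1, Myocd, Pln, Ppp1r14a, Smtnl2 and Synpo2) were under the floor in both, and so had no ratio. Of the 3 with a ratio, 0 differed 2-fold. The members at least 2-fold higher in D351 are genes that cells outside smooth muscle make too. Striated muscle had 1 heavy chain on the array, Myh7b, which read 4.8 and 2.7.

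Markers of other cells did not all go the same way between the clones. Of 14 markers listed for embryonic fibroblasts, the cells used as feeders during cloning, 4 were on the array (Prrx1, Cd248, Aspn and Col5a2). All 4 were at least 2-fold higher in D351, beside 9.49% of all measured genes. Their signals summed to 404.2 in D16 and 1348.3 in D351. In D16, Aspn (3.6) and Col5a2 (12.4) were under the floor, so 2 of the 4 ratios are bounds. In these 4 genes, signal from feeder cells and from the clones themselves cannot be told apart. The part of either in the higher contractile signals was not tested. Pericyte markers (3 of 7 on the array) summed to 93.0 and 37.3, with Cspg4 lower in D351 and Rgs5 and Abcc9 under the floor. Endothelial markers (2 of 11) summed to 21.8 and 55.3. Of these, Flt1 read 10.3 and 44.5, and Esam was under the floor in both clones (11.5 and 10.8). Runx1 alone stood for blood cells (45.4 and 61.1). The cardiac marker Myl7 read 12.9 and 2.2, under the floor in both.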

How the data were processed

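RNA of 2 mesoangioblast clones was measured on 1 array each, so there were 2 samples and 1 per group. The deposited intensity values, 1 per probe set on a linear scale, were used as the authors left them because the 2% trimmed means matched within 5%. How the signals were computed and scaled, and with which software, is not given in the sources used here. Any shared scale hides any change common to all transcripts. The number of arrays limits the precision.

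The table held 12477 probe sets, of which 66 controls were left out. The annotation gave 10581 of the rest 1 symbol, 178 several and 1652 none, and symbols were updated through gene identifiers (10550 matched) to RefSeq of GRCm38.p6. Values under the pooled 50th percentile (16.8) were raised to it. A gene was represented by the probe set with the highest mean signal. The rule for size was 2-fold with the brighter array at the floor, and no p-value was computed. Named genes were all members, measured list genes past 2-fold (up to 6 per list) and smooth muscle markers. Others were named after their values were seen: Itpr2, Itpr3, Pak2, Cdc42bpa, Cdc42bpb, Ppp1r12c, Phactr4, Tmod3, Srf, Tead1, Myo18a and the genes of the other marker lists. Results of 1 further list are not reported here. Members and lists were chosen with earlier results of these data known. Alternatives covered scaling, floor, probe set, size rule and filter. The ratio calculation was tested on simulated data. The simulated differences were placed in bright probe sets, so that test does not cover differences in signals near the floor. Python 3.11.15, numpy 2.4.6, pandas 2.3.3 and matplotlib 3.10.9 were used.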

Additional observations from a re-analysis of the deposited data

How the results depend on the processing

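Of 70 member ratios recomputed under other settings, 63 moved by less than the SD of 0.50 per probe set and 7 moved by more. From a 2-fold difference, 0 turned sign. Mylk ranged from 1.47 to 2.85 and Myh10 from 1.53 to 1.68 on the log2 scale, and both passed 2-fold under all 9 settings, while Ppp1r12a (0.77 to 1.15) and Tpm1 (0.02 to 1.71) passed under 7 of 9. Members at least 2-fold higher in D351 numbered 2 with the median over probe sets, and 3 with the floor at the 75th percentile. With the floor at the 25th percentile 1 member, Myh9, was at least 2-fold higher in D16 (log2 -1.26), because its D351 signal of 8.5 then counted as measured. Members at the floor in D16 numbered 4 with the floor at the 75th percentile, beside 6 in D351. In the contractile lists, genes at least 2-fold higher in D16 numbered 5 with the floor at the 25th percentile, 3 with a 1.5-fold rule and 0 with a 3-fold rule. Those higher in D351 numbered 8 at the 75th percentile floor and 6 under the 3-fold rule. Taking off chromosome medians and adding the floor value to each signal were settings chosen after the data were seen. No scaling moved the median of all genes past -0.03. No paired analysis was possible because each clone had 1 array and the labels carry no replicate numbers.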

Other observations

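Unconventional myosins, which move cargo or membranes and do not form contractile filaments, were set beside myosin II. Of 11 on the array 7 were measured, with a median log2 ratio of 0.40 and 5 of the 7 above 0. Past 2-fold were 2 towards D351 and 0 towards D16, beside 9.49% and 8.57% of all measured genes. Myo10, a motor of filopodia, read 187.5 in D16 and 464.2 in D351 (2.48-fold), and Myo5a, a carrier of vesicles, read 68.5 and 153.3 (2.24-fold). Myo18a was close to equal at 32.9 and 31.8. Myh10 (3.12-fold) and these 2 motors outside the contractile apparatus, Myo10 and Myo5a, thus had higher signals in D351. Whether the contractile genes differ from the unconventional myosins was not tested.

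With the floor lowered to 4.6, the 25th percentile, all 10 members had a measured probe set. Ppp1r14a then had a log2 ratio of 0.16 and Myocd of -0.05, from signals too dim to read equality or a difference from them. The _g probe set of Mylk had a log2 ratio of at least 3.47 at that floor, and 4 of the 5 dim Ppp1r12a probe sets reached it on at least 1 array, 3 of them higher in D351 and 1 in D16.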
